A study of Mus musculus with 39 samples.

Results

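The 8 genes described here were Ctnnb1, Lef1, Tcf7, Tcf7l1, Axin2, Sp5, Lgr5 and Cdx1, which encode effectors or targets of the Wnt pathway, out of 21938 protein-coding genes. The choice was by pathway, with no measured value in its rule. For each gene, every histone mark peak listed in 36 CUT&Tag libraries was taken where it overlapped the gene body plus 20 kb either side. These windows held 377 of the 432096 peaks listed in all, of which 154 were H3K4me1, 120 were H3K27ac, 45 were H3K27me3 and 58 were H3K9me3 peaks.

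Wnt ligands act by stabilising beta-catenin, which enters the nucleus and binds factors of the TCF/LEF family on DNA. Without beta-catenin these factors recruit corepressors, and with it they activate targets, several of which feed back on the pathway. In mouse embryonic stem cells the pathway supports naive pluripotency, in part by relieving repression by TCF7L1. Among the marks, H3K4me1 and H3K27ac are found at enhancers, H3K27ac also at active promoters, H3K27me3 is laid down by Polycomb repressive complex 2, and H3K9me3 marks heterochromatin.

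The libraries came from mouse naive extra-embryonic endoderm (nEnd) cultures of an OCT4-mCherry embryonic stem cell line, with no treatment, sorted by FACS for the OCT4-mCherry reporter and for surface PDGFRA stained with APC. The populations were OCT4-mCherry-positive (Oct4+), positive for both (DP) and PDGFRA-positive (Pdgfra+), each with 3 libraries per mark. All populations shared the RACL medium of the study, which holds Activin A, LIF and CHIR99021, an inhibitor of the beta-catenin kinase GSK3 that is used to activate the pathway downstream of its ligands. They also shared 1 reporter line and a layer of mouse embryonic fibroblasts, and the study calls its replicates biological, although the labels do not say whether they were separate cultures or sorts.

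The lists differed widely in length, from 1074 to 16057 peaks for H3K4me1, 3079 to 65131 for H3K27ac, 1143 to 8672 for H3K27me3 and 5322 to 29970 for H3K9me3. The longest H3K27ac lists were those of Oct4+ replicates 1 and 2 (38619 and 65131 peaks, against 8574 in replicate 3), and the shortest H3K4me1 lists were those of Pdgfra+ replicates 1 and 2 (1723 and 1074 peaks, against 10620 in replicate 3). Depth is unknown, so a gene without a listed peak may still carry the mark. H3K27ac at 6 pluripotency markers followed the sort, with 6 listed in at least 2 of 3 Oct4+ lists, 1 in DP and 0 in Pdgfra+, and all 7 endoderm markers were listed in DP and Pdgfra+. In Oct4+, 6 of the 7 endoderm markers were also listed in 2 of 3 libraries, and so, in at least 2, were 2 of 7 fibroblast markers, Col1a1 and Col3a1. Summed over the 7 fibroblast markers, the H3K27ac covered share spanned 2.65 to 31.4% among Oct4+ libraries and 0 to 4.69% among DP libraries, and it was 0 in all Pdgfra+ lists. Of 6 trophectoderm markers, 4, 4 and 3 were listed in at least 2 of 3 libraries of Oct4+, DP and Pdgfra+. By the same count, H3K27ac was listed at 69.0, 49.1 and 34.0% of all genes in that order. Whether cells of other types were present, and their part in the values below, was not tested.

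The measure was the covered share, the percent of a gene's window that lay under listed peaks. Member windows ran from 42.8 kb for Sp5 to 203 kb for Tcf7l1, against a median of 57.4 kb over all genes, and a longer window has more room for a peak. H3K4me1 was listed at 7 of 8 members in at least 2 of 3 Oct4+ libraries, at 5 in DP and at 2 in Pdgfra+, against 29.0, 33.9 and 10.1% of all genes. H3K27ac was listed at 5, 4 and 3 members in the same order, against 69.0, 49.1 and 34.0% of all genes. H3K27me3 was listed at 3, 5 and 3 members, against 17.7, 30.9 and 15.4%, and H3K9me3 at 3, 4 and 3, against 35.4, 30.1 and 25.7%.

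**Figure D1:**
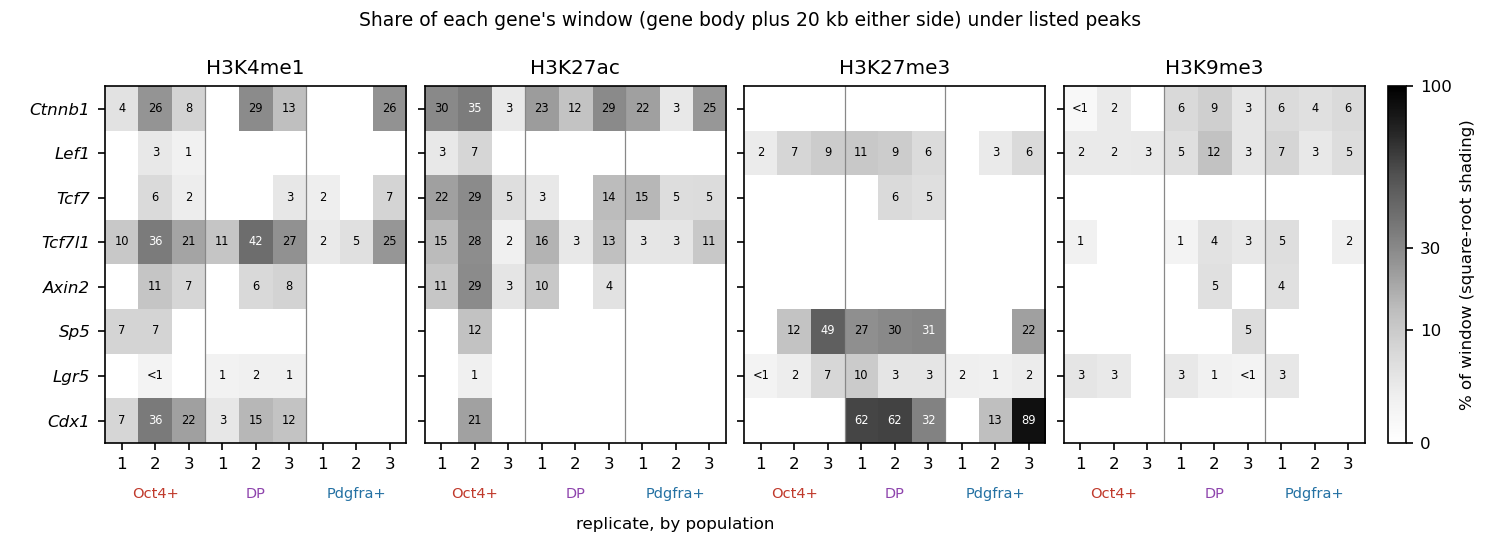
Covered share (percent of the gene body plus 20 kb either side under listed peaks) of the 8 members in each of 36 libraries, a panel for each mark, with the 3 replicates of each population side by side and blank cells at 0. H3K27me3 is blank at Ctnnb1, Tcf7l1 and Axin2 in all 9 libraries, and at Cdx1 it is blank in Oct4+ and reaches 89.3% in Pdgfra+ replicate 3.

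The number of members listed moved with the length of the list for H3K4me1 and H3K27ac. In H3K4me1 it ran from 1 member in the shortest list, Pdgfra+ replicate 2, to 8 in the longest, Oct4+ replicate 2. In H3K27ac it ran from 2 in DP replicate 2 (3079 peaks) to 8 in Oct4+ replicate 2 (65131 peaks). Over all genes, the share with a listed H3K27ac peak ran from 21.8 to 81.4% between the same libraries. In H3K27me3 the DP lists held 4, 5 and 5 members, Oct4+ 2, 3 and 3, and Pdgfra+ 1, 3 and 4.

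**Figure D2:**
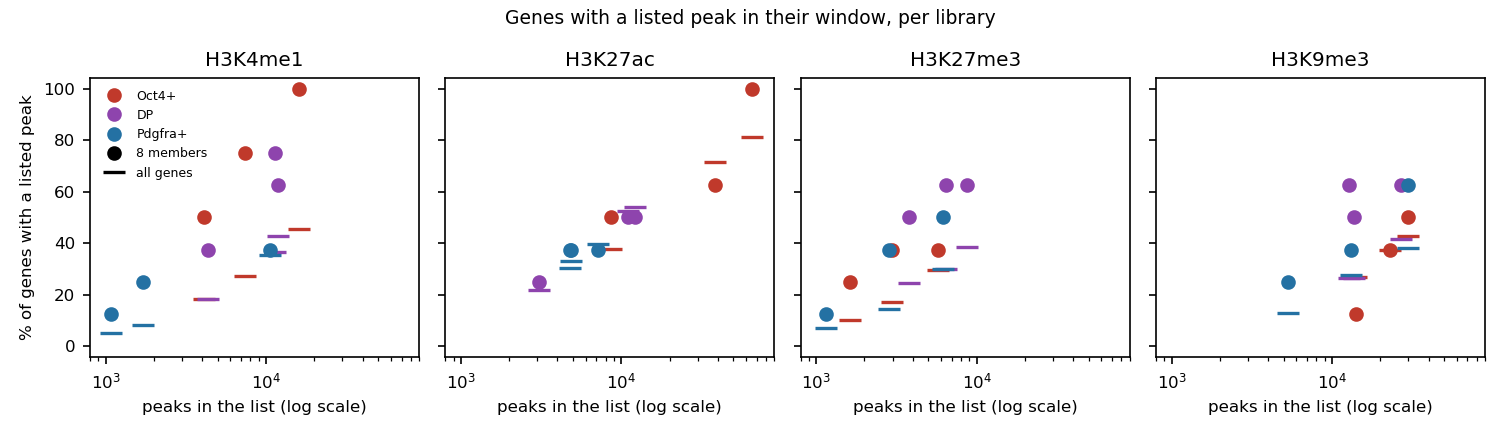
Percent of genes with a listed peak in their window (vertical axis) against the number of peaks in the list (horizontal axis, log scale), a panel per mark and a point per library, with the 8 members as circles and all 21938 genes as dashes. In H3K27ac both are lowest in the shortest list (3079 peaks) and highest in the longest (65131 peaks), and in H3K27me3 the circles lie above the dashes in each of the 9 libraries.

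For each mark, the one-way F statistic of the 3 populations was set against its value under every assignment of the 9 libraries (exact permutation test), with p adjusted by Benjamini-Hochberg over every gene with a peak in at least 3 libraries. No gene passed an adjusted p under 0.05 in any mark: 0 of 8861 (0%) for H3K4me1, 0 of 12953 (0%) for H3K27ac, 0 of 6868 (0%) for H3K27me3 and 0 of 9226 (0%) for H3K9me3, with lowest adjusted p of 0.426, 0.307, 0.391 and 0.219. The smallest p that 9 libraries allow is 0.00357. A gene listed in all 3 libraries of 1 population and in no other cannot go below 0.0357 in this exact permutation test. An unadjusted p under 0.05 was reached by 1 of the 6 members tested for H3K4me1 (Lgr5), against 9.4% of all genes tested, and by 1 of 4 for H3K9me3 (Ctnnb1), against 17.9%. It was reached by 0 of 4 members tested for H3K27ac, against 12.5%, and by 0 of 4 for H3K27me3, against 10.4%.

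A second comparison called a gene when 3 of 3 lists of 1 population and 0 of 3 of another held a peak in its window. For H3K4me1, Cdx1 was called between Oct4+ and Pdgfra+ (4.52% of all genes called), Lgr5 and Cdx1 between DP and Pdgfra+ (1.41%), and no member between Oct4+ and DP (3.96%). For H3K27ac, Axin2 was called between Oct4+ and Pdgfra+ (7.63%), and no member between Oct4+ and DP (3.38%) or DP and Pdgfra+ (0.196%). For H3K27me3, Cdx1 was called between DP and Oct4+ (3.59%), and no member between Oct4+ and Pdgfra+ (1.79%) or DP and Pdgfra+ (2.41%). For H3K9me3 no member was called between Oct4+ and Pdgfra+ (6.29%), Oct4+ and DP (4.29%) or DP and Pdgfra+ (1.02%). When every list was held to the number of peaks of the shortest list of its mark, the H3K4me1 and H3K27ac calls were lost and Sp5 took the place of Cdx1 for H3K27me3. Genome-wide the calls from the full lists leaned to 1 side. H3K4me1 was in 3 Oct4+ and 0 Pdgfra+ lists at 920 genes and the reverse at 72, and H3K27ac at 1664 and 10.

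Ctnnb1, which encodes beta-catenin, the transducer through which every canonical ligand acts, lies on chromosome 9 (chr9:120929216-120960507, plus strand, GRCm38). It carried H3K27ac in all 9 libraries and H3K27me3 in none. The H3K27ac covered share was 29.6, 35.1 and 2.67% in Oct4+, 22.9, 12.01 and 29.1% in DP and 22.0, 2.76 and 24.5% in Pdgfra+. The populations overlapped (22.5 ± 17.4, 21.3 ± 8.65 and 16.4 ± 11.9%, SD, n = 3; exact permutation p = 0.796). A peak lay at an annotated Ctnnb1 promoter in 2 libraries of each population, and a second region from 27.1 to 39.5 kb, over the last exons and into the neighbouring gene Ulk4, was listed in 8 of 9.

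Upstream of Ctnnb1 the lists differed by population. An intergenic H3K27ac region from -11.4 to -7.48 kb of the start was listed in 3 of 3 Oct4+ libraries and in none of the other 6, and H3K4me1 was listed over it in Oct4+ replicates 1 and 2. The 5 peaks had their maximum between -9.99 and -9.77 kb of the start, so both marks placed it at nearly the same point. Over the genome, 18.7% of the 12986 H3K27ac regions listed in at least 3 libraries were listed in 3 Oct4+ and 0 other libraries. Held to an equal number of peaks per list, the Ctnnb1 upstream region was listed in 0 libraries for either mark. Over the whole window, H3K4me1 covered 4.10, 25.7 and 7.52% of the window in Oct4+, 0, 28.7 and 13.4% in DP and 0, 0 and 26.5% in Pdgfra+, and the populations overlapped (exact permutation p = 0.818). The 300 bases about the maximum in Oct4+ replicate 1 (chr9:120919295-120919594, GRCm38.p6, plus strand) are given to show the sequence under it. This and the other single regions described were picked out after their values were seen, and no test was made of them.
Ctnnb1 upstream maximum: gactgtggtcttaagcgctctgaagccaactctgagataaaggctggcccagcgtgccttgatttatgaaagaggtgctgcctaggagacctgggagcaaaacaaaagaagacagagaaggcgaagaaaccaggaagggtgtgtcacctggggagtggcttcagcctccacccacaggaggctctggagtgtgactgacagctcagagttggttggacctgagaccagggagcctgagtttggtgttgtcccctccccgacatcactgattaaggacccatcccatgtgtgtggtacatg
No TCF/LEF motif (CTTTGAA, or the variants CTTTGAT, also CTTTGTA, or the variant CTTTGTT, on either strand) was present in it, and 21.0% of the 38619 windows of the same length about the maxima of that library held at least 1.

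H3K9me3 at Ctnnb1 lay across the outer edge of that region. A region from -14.9 to -9.53 kb was listed in 3 DP, 3 Pdgfra+ and 1 Oct4+ library, with maxima from -13.4 to -11.1 kb. The H3K9me3 covered share was 0.295, 2.41 and 0% in Oct4+, 6.09, 8.62 and 3.10% in DP, and 5.65, 4.39 and 5.71% in Pdgfra+. All 6 DP and Pdgfra+ values lay above the 3 Oct4+ values (exact permutation p = 0.0357, adjusted p = 0.219), which did not pass the threshold. Held to an equal number of peaks per list, all Oct4+ and DP values were 0% and Pdgfra+ gave 0, 4.39 and 5.71%, so DP no longer stood apart from Oct4+.

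Lef1 (chr3:131110471-131224356, plus strand) encodes a TCF/LEF factor that is mainly an activator and is itself a Wnt target. H3K27me3 lay in a region from -9.99 to 6.51 kb that spans the promoter and was listed in 8 of 9 libraries. The H3K27me3 covered share was 2.25, 6.88 and 9.40% in Oct4+, 10.5, 9.30 and 5.52% in DP, and 0, 2.54 and 5.99% in Pdgfra+. The 3 populations overlapped (exact permutation p = 0.154, adjusted p = 0.494). Held to an equal number of peaks per list, the 3 DP libraries and Pdgfra+ replicates 2 and 3 kept these values and Oct4+ replicates 2 and 3 fell to 0.

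H3K27ac and H3K4me1 at Lef1 were listed in Oct4+ alone, each in 2 of 3 libraries. Genome-wide, 18.6% of 78963 H3K27ac regions and 12.8% of 26496 H3K4me1 regions were listed in at least 2 Oct4+ and 0 other libraries. H3K27ac covered 2.71 and 6.97% in Oct4+ replicates 1 and 2 and 0% in replicate 3, and H3K4me1 covered 2.70 and 1.23% in replicates 2 and 3 and 0% in replicate 1. An intergenic region from -9.83 to -7.81 kb held H3K27ac in 2 Oct4+ libraries and overlapped H3K4me1 in 2. The 4 maxima lay between -8.14 and -8.04 kb, and with equal numbers of peaks the region was listed in 0 libraries for either mark. H3K27me3 overlapped this region in Oct4+ replicate 3 and DP replicates 1 and 2, and touched its edge in Oct4+ replicate 2. The 300 bases about the H3K27ac maximum of Oct4+ replicate 2 (chr3:131102253-131102552, GRCm38.p6, plus strand) follow, with the 1 TCF/LEF motif match in capitals.
Lef1 upstream maximum: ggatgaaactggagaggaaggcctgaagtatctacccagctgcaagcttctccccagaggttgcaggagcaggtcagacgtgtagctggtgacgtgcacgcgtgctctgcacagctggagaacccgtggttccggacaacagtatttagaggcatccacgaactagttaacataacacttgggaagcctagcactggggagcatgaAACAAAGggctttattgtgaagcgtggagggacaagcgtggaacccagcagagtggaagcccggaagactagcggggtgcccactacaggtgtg
At least 1 match was present in 19.8% of the 65131 windows about the maxima of the same library, so the match is a description of this sequence.

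Tcf7 (chr11:52252371-52283014, minus strand) encodes TCF1, an activating member of the family. The H3K27ac covered share was 21.9, 28.7 and 4.89% in Oct4+, 2.82, 0 and 14.3% in DP, and 15.3, 5.05 and 5.37% in Pdgfra+ (exact permutation p = 0.254). A region over the promoter of the neighbouring gene Skp1a, from 45.0 to 56.2 kb downstream of the Tcf7 start, was listed in 8 of 9 libraries. It made up all of the covered share in DP replicate 1 and Pdgfra+ replicate 3, and from 9.09% of it in Oct4+ replicate 1 to 47.3% in Pdgfra+ replicate 1 in the other 6, so in these most lay elsewhere in the window. Within the gene, an intronic H3K27ac region from 7.14 to 11.7 kb was listed in 3 of 3 Oct4+ libraries and 0 of the other 6, whereas another from 12.1 to 25.8 kb was listed in 2 Oct4+, 1 DP and 2 Pdgfra+ libraries. The 3 Oct4+ maxima of the former lay at 7.53, 7.67 and 8.22 kb, and the peaks stood at percentile 84.6, 40.1 and 2.08 of their lists by total signal. The pattern was that of the 18.7% of H3K27ac regions given above, and with equal numbers of peaks the region was listed in 0 libraries. It is shown because it was listed in each Oct4+ library and in no other, as the 300 bases about the maximum in replicate 1 (chr11:52275338-52275637, GRCm38.p6, plus strand).
Tcf7 intronic maximum: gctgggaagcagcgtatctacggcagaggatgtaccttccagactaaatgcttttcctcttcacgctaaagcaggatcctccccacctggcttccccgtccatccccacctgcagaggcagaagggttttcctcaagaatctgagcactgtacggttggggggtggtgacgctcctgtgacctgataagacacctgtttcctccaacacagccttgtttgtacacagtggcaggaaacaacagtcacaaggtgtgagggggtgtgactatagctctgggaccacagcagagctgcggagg
It held no TCF/LEF motif match.

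The Tcf7 promoter itself carried H3K27ac in 1 library, Oct4+ replicate 2, and H3K27me3 in 2, DP replicates 2 and 3. The H3K27me3 region ran from -0.797 to 3.44 kb and covered 6.002 and 4.64% of the window in those libraries. With 2 DP lists and 0 of the other 7, this did not reach the rule of 3 against 0. H3K4me1 was thin, at 0, 5.92 and 1.89% in Oct4+, 0, 0 and 3.06% in DP, and 1.83, 0 and 7.47% in Pdgfra+, and H3K9me3 was not listed in any library.

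**Figure D3:**
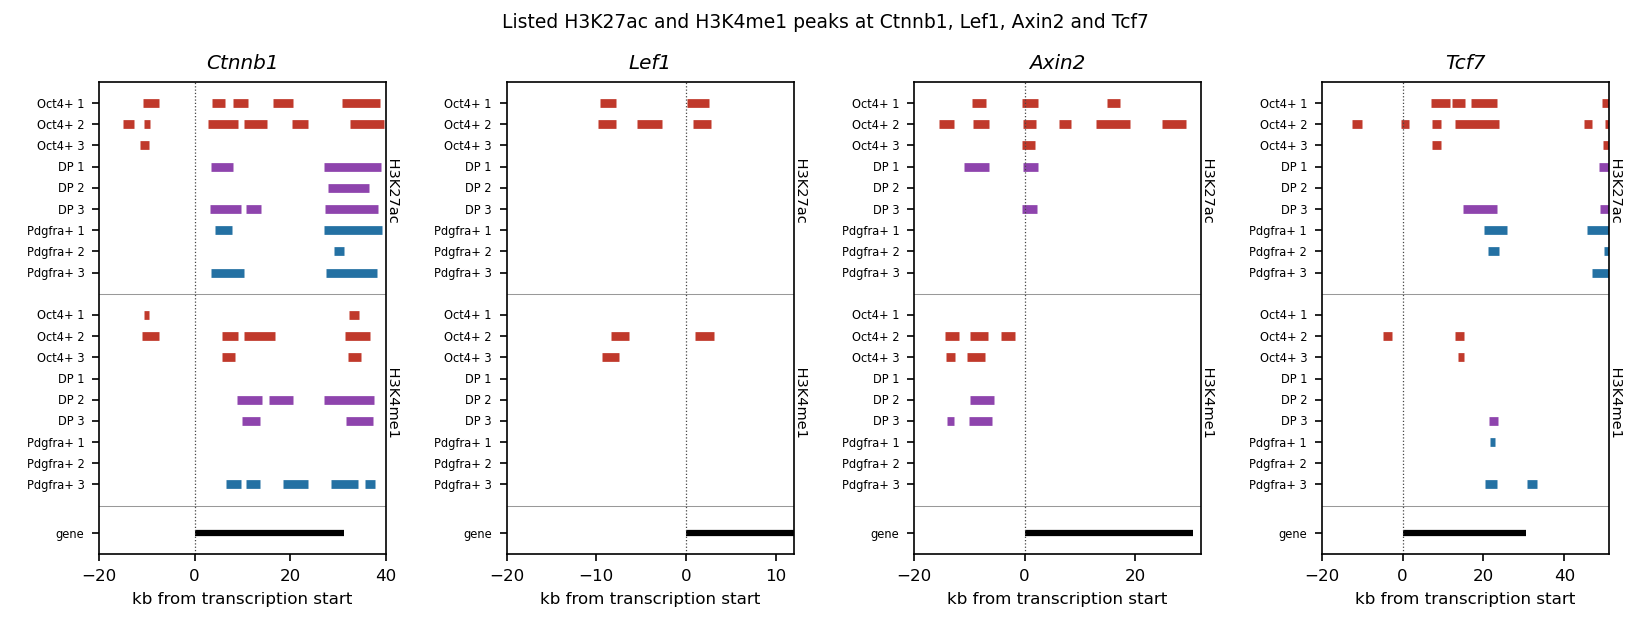
Listed H3K27ac (upper rows) and H3K4me1 (lower rows) peaks at Ctnnb1, Lef1, Axin2 and Tcf7, as bars along the distance from the transcription start in kb, a row per library, coloured by population, with the gene body in black. Oct4+ rows hold peaks near -9.9 kb of Ctnnb1 and near -8.1 kb of Lef1 where rows of the other populations are empty.

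Tcf7l1 (chr6:72626378-72789254, minus strand) encodes TCF3, the family member that acts mainly as a repressor in pluripotent cells. It held more merged regions of H3K4me1 (18) and of H3K27ac (19) than any other member, in the longest window. The H3K4me1 covered share was 10.4, 35.7 and 20.6% in Oct4+, 11.5, 41.6 and 26.7% in DP, and 2.42, 4.54 and 24.9% in Pdgfra+. Oct4+ and DP overlapped throughout, and Pdgfra+ replicate 3 lay among them while the other two lists, the shortest of the mark, were lower (exact permutation p = 0.357, adjusted p = 0.685). For H3K27ac it was 14.6, 28.1 and 1.53% in Oct4+, 16.4, 2.70 and 13.04% in DP, and 3.21, 3.36 and 10.8% in Pdgfra+, again with overlap (exact permutation p = 0.504).

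The intronic regions of Tcf7l1 differed in which populations listed them. H3K4me1 from 18.0 to 42.4 kb was listed in all 9 libraries, and from 87.6 to 101 kb in 8. Intronic H3K4me1 from 57.0 to 61.1 kb and from 76.4 to 78.7 kb, and an upstream region from -20.03 to -17.9 kb, were each listed in 3 of 3 Oct4+ and 0 of 6 other libraries, as were 10.7% of the 9352 H3K4me1 regions listed in at least 3 libraries. With equal numbers of peaks these 3 regions were listed in 1, 0 and 1 Oct4+ libraries in that order. An H3K4me1 region from 146 to 149 kb was listed in 3 DP, 1 Pdgfra+ and 0 Oct4+ libraries, and another from 9.24 to 17.1 kb likewise. With equal numbers of peaks the former was listed in 0 libraries and the latter in 1 DP and 1 Pdgfra+ library. H3K27ac over the former was listed in 1 Oct4+ and 1 DP library. H3K27ac from 20.1 to 26.0 kb was listed in 2 DP, 1 Pdgfra+ and 0 Oct4+ libraries, inside the H3K4me1 region that all libraries listed. With equal numbers of peaks it was listed in 0 libraries. The share of all regions listed in DP and Pdgfra+ but not in Oct4+ was not counted. The Tcf7l1 promoter carried H3K27ac in 3 Oct4+, 2 DP and 1 Pdgfra+ library and H3K27me3 in none, and the H3K27ac at the far end of the window lay over the promoter of Tgoln1, listed in 7 of 9.

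**Figure D4:**
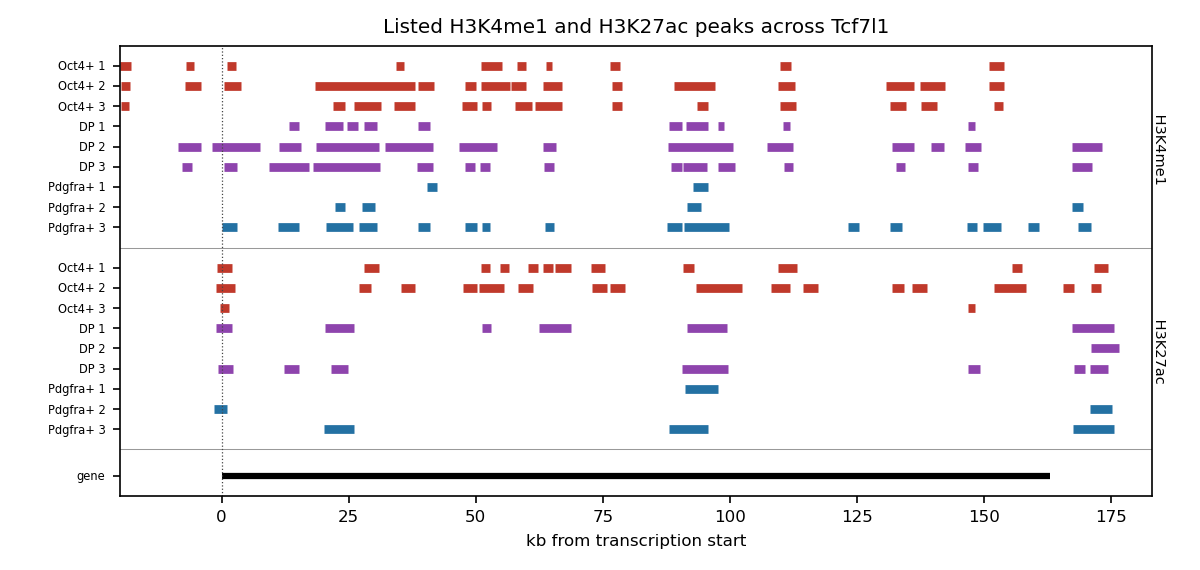
Listed H3K4me1 (upper rows) and H3K27ac (lower rows) peaks across Tcf7l1, as bars along the distance from the transcription start in kb, a row per library, coloured by population, with the gene body in black. H3K4me1 from 18.0 to 42.4 kb appears in all 9 rows, and bars at 57.0 to 61.1 kb appear in Oct4+ rows only.

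Axin2 (chr11:108920349-108950783, plus strand) encodes a scaffold of the beta-catenin destruction complex and is a widely used target gene of the pathway, acting as negative feedback. Its H3K27ac covered share was 11.2, 28.9 and 3.29% in Oct4+, 10.4, 0 and 3.87% in DP, and 0% in all 3 Pdgfra+ libraries. The means were 14.5 ± 13.1, 4.76 ± 5.26 and 0% (SD, n = 3), and the difference did not pass the threshold (exact permutation p = 0.0643, adjusted p = 0.418). The promoter carried an H3K27ac peak in 3 Oct4+, 2 DP and 0 Pdgfra+ libraries. By total signal it stood at percentile 87.7 and 90.1 of the lists of Oct4+ replicates 1 and 2, the 2 longest, and at 27.04 in replicate 3. It stood at percentile 19.1 and 20.99 in DP replicates 1 and 3, nearer the lower end of those lists. Held to an equal number of peaks, Axin2 had no H3K27ac in any library. H3K27me3 was not listed at Axin2 in any of 9 libraries.

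H3K4me1 at Axin2 lay upstream and in Oct4+ and DP. The covered share was 0, 11.4 and 6.96% in Oct4+, 0, 6.17 and 7.59% in DP and 0% in the 3 Pdgfra+ libraries (exact permutation p = 0.286). The main region, from -10.4 to -5.49 kb, was listed in 2 Oct4+ and 2 DP libraries and overlapped H3K27ac from -11.0 to -6.36 kb in 2 Oct4+ libraries and 1 DP library. Pdgfra+ replicate 3, without an Axin2 peak, had 10620 peaks in its H3K4me1 list, and DP replicates 2 and 3 had 11874 and 11334. Held to an equal number of peaks, Axin2 had no H3K4me1 in any library. The part of list length in this was not tested. The 250 bases before the RefSeq start (chr11:108920099-108920348, GRCm38.p6, plus strand) lie in the merged promoter region and are printed beside those of Sp5, another target gene.
Axin2 promoter: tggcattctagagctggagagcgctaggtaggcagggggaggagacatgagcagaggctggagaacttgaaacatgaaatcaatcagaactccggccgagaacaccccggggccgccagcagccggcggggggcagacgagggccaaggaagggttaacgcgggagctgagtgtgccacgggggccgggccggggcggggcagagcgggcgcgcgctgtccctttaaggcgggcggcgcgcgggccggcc
Sp5 promoter: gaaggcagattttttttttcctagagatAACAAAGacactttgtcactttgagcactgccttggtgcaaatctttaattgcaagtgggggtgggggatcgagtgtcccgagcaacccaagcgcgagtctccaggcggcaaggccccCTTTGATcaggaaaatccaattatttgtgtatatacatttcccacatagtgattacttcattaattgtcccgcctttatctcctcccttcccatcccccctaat
Capitals mark TCF/LEF motif matches, of which Axin2 had 0 and Sp5 (chr2:70474673-70474922, plus strand) had 2. Of 32851 RefSeq promoters, 14.8% held at least 1 match in the 250 bases and 1.43% held 2 or more. The sequences also differed in base composition, with 69.2% G and C and 24 CpG at Axin2 against 46.0% and 6 at Sp5, and medians of 52.4% and 6 over all promoters. RefSeq promoters were matched for 6 of the 8 members, and 1 of the 11 member promoters besides Sp5, a downstream start of Lef1, held a match.

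Sp5 (chr2:70474923-70477729, plus strand) encodes a zinc finger repressor that is a direct Wnt target and competes with other SP factors. H3K27me3 was its main mark, at 0, 11.8 and 48.6% in Oct4+, 27.2, 29.9 and 30.9% in DP, and 0, 0 and 21.7% in Pdgfra+. The DP values were close together (29.3 ± 1.91%, SD, n = 3), whereas Oct4+ (20.1 ± 25.4%) and Pdgfra+ (7.22 ± 12.5%) ranged from 0 and Oct4+ reached above DP (exact permutation p = 0.304, adjusted p = 0.563). The libraries at 0 were the shorter lists, of 1629, 1143 and 2841 peaks. Held to an equal number of peaks, the DP libraries gave 27.2, 20.9 and 19.4% and the other 6 gave 0%.

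H3K4me1 at Sp5 was listed in Oct4+ replicates 1 and 2 at 7.35 and 7.27% and in no other library. It lay from -3.81 to -0.357 kb, beside the promoter sequence above and inside the H3K27me3 region from -6.93 to 4.79 kb, which was listed in Oct4+ replicates 2 and 3. H3K27ac at Sp5 was listed in Oct4+ replicate 2 alone (12.3%), the library with 65131 peaks. H3K9me3 was listed in DP replicate 3 alone (5.16%).

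Lgr5 (chr10:115450311-115587780, minus strand) encodes a receptor for R-spondins and marks Wnt-dependent adult stem cells. Its promoter was the 1 member promoter with H3K27me3 in all 9 libraries, in a region from -8.55 to 8.68 kb. The covered share was 0.931, 2.08 and 6.75% in Oct4+, 9.71, 3.40 and 3.46% in DP, and 1.59, 1.39 and 2.17% in Pdgfra+ (exact permutation p = 0.289). The maxima of the 9 promoter peaks lay between 0.220 and 0.672 kb inside the gene, while their widths ran from 1.65 kb in Oct4+ replicate 1 to 17.2 kb in DP replicate 1. In Pdgfra+ replicate 1 and Oct4+ replicate 1, the shortest H3K27me3 lists, the Lgr5 peak stood at percentile 34.9 and 30.9 of the list by total signal.

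H3K4me1 lay at the same place. The covered share was 0, 0.929 and 0% in Oct4+, 1.04, 1.51 and 1.45% in DP, and 0% in the 3 Pdgfra+ libraries. Every DP value lay above every other value (exact permutation p = 0.0357, adjusted p = 0.426), which did not pass the threshold. The share of all genes with DP set apart in this way was not counted. The 3 DP maxima lay 0.282, 0.623 and 0.341 kb inside the gene. DP libraries therefore listed H3K4me1 and H3K27me3 over the Lgr5 promoter in 3 of 3 libraries for each mark. Whether they occupied the same cells cannot be told from sorted populations. Oct4+ replicates 2 and 3 and Pdgfra+ replicate 3 had H3K4me1 lists longer than DP replicate 1 (16057, 7443 and 10620 against 4371 peaks), and 1 of those 3 listed Lgr5. By total signal, the DP peaks stood at percentile 40.6, 5.95 and 34.9 of their lists. Held to an equal number of peaks, Lgr5 had H3K4me1 in 0 libraries. The part of list length in the H3K4me1 pattern was not tested. H3K27ac was listed at Lgr5 in Oct4+ replicate 2 alone, at 1.47%.

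Cdx1 (chr18:61018862-61036199, minus strand) encodes a caudal homeobox factor that patterns the body axis and is a Wnt target in the embryo. Its window showed the widest spread of H3K27me3 among the members. The covered share was 0, 0 and 0% in Oct4+, 61.5, 62.3 and 32.3% in DP, and 0, 13.2 and 89.3% in Pdgfra+. The means were 0, 52.1 ± 17.1 and 34.2 ± 48.2% (SD, n = 3). The 3 DP values lay above the 3 Oct4+ values, and Pdgfra+ ranged from 0 to the highest value of all (exact permutation p = 0.15, adjusted p = 0.492). Oct4+ replicate 3 had 5785 H3K27me3 peaks, more than DP replicate 1 with 3798. Held to an equal number of peaks, DP gave 0, 34.6 and 18.4%, Pdgfra+ 0, 8.89 and 89.3% and Oct4+ 0% throughout, so the call between DP and Oct4+ was lost.

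H3K4me1 at Cdx1 ran the other way between Oct4+ and Pdgfra+. The covered share was 6.89, 36.2 and 21.9% in Oct4+, 3.0, 15.4 and 11.99% in DP, and 0% in the 3 Pdgfra+ libraries, among them replicate 3 with 10620 peaks (exact permutation p = 0.075, adjusted p = 0.536). The regions also differed. H3K4me1 from -8.64 to 3.797 kb, across the Cdx1 promoter and up to that of the neighbouring gene Pdgfrb, was listed in 3 Oct4+ and 2 DP libraries. H3K4me1 from -14.4 to -9.67 kb, inside Pdgfrb, was listed in 3 DP libraries and in no Oct4+ or Pdgfra+ library. Genome-wide, 234 of the 9352 H3K4me1 regions listed in at least 3 libraries were listed in 3 DP and 0 other libraries. With equal numbers of peaks the region inside Pdgfrb was listed in 0 libraries, and the promoter region in 2 Oct4+ libraries alone. The H3K4me1 covered share was then 0, 36.2 and 13.96% in Oct4+ and 0% in all DP and Pdgfra+ libraries. At the Cdx1 promoter proper (1000 bases upstream to 100 downstream) H3K4me1 was listed in 2 Oct4+ libraries and 0 of DP, and H3K27me3 in 3 DP, 1 Pdgfra+ and 0 Oct4+ libraries. H3K27ac was listed in Oct4+ replicate 2 alone (21.5%).

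The H3K27me3 of the Cdx1 window was not confined to Cdx1. It formed a merged region of 32.8 kb over the promoter of Slc6a7, a proline transporter gene, and another of 41.5 kb over the promoters of Cdx1 and Pdgfrb, and each was listed in 3 DP, 2 Pdgfra+ and 0 Oct4+ libraries. The promoters of Slc6a7 and Pdgfrb carried H3K27me3 in 5 and 4 of 9 libraries, against 4 for Cdx1.

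**Figure D5:**
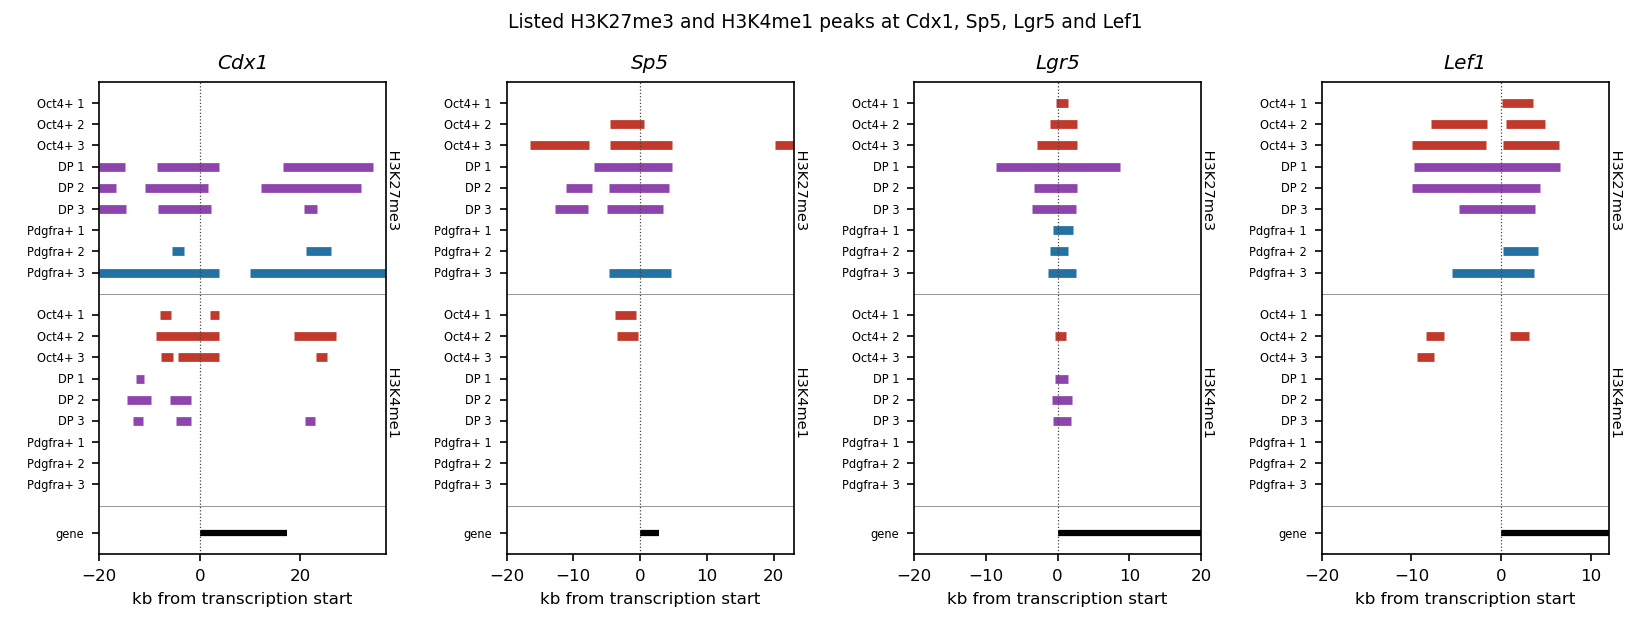
Listed H3K27me3 (upper rows) and H3K4me1 (lower rows) peaks at Cdx1, Sp5, Lgr5 and Lef1, drawn as bars along the distance from the transcription start in kb, a row per library, coloured by population, with the gene body in black. At Cdx1 the Oct4+ rows hold H3K4me1 and no H3K27me3 while 2 Pdgfra+ rows hold H3K27me3 and no Pdgfra+ row holds H3K4me1, and at Lgr5 all 9 rows hold H3K27me3 at the start.

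Across member promoters, H3K27ac was listed in at least 2 of 3 libraries at 4 promoters in Oct4+ (Ctnnb1, Lef1, Tcf7l1 and Axin2), at 3 in DP (Ctnnb1, Tcf7l1 and Axin2) and at 1 in Pdgfra+ (Ctnnb1), against 35.4, 32.4 and 19.96% of all genes. H3K27me3 was listed at 3 in Oct4+ (Lef1, Sp5 and Lgr5), at 5 in DP (these and Tcf7 and Cdx1) and at 2 in Pdgfra+ (Lef1 and Lgr5), against 10.1, 15.7 and 6.32%. H3K4me1 was listed at 2, 2 and 0, against 5.20, 7.49 and 1.10% of all genes. H3K9me3 was listed at 0 in each population, against 1.70, 1.39 and 1.34%. In DP the 5 members with promoter H3K27me3 and the 3 with promoter H3K27ac were different genes. The share of all genes with either, both or neither mark was not counted, so this split only describes the members.

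H3K9me3 at the remaining members lay away from member promoters. At Lef1 it was listed in all 9 libraries, at 2.32, 2.47 and 2.60% in Oct4+, 4.71, 12.2 and 3.11% in DP, and 7.24, 2.78 and 5.31% in Pdgfra+. All 6 DP and Pdgfra+ values lay above the 3 Oct4+ values (exact permutation p = 0.307, adjusted p = 0.609). The share of all genes with values set apart in this way was not counted. Held to an equal number of peaks, Oct4+ gave 0, 0 and 1.64%, DP 4.71, 3.07 and 0%, and Pdgfra+ 0, 2.78 and 2.49%, so the populations overlapped. The regions listed most often were an upstream region from -14.1 to -9.65 kb and an intronic region from 57.7 to 63.7 kb, each in 8 libraries. Tcf7l1 and Lgr5 carried H3K9me3 in 6 of 9 libraries each, Axin2 in 2, Sp5 in 1, and Tcf7 and Cdx1 in none.

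A list of 82 other Wnt pathway genes, from ligands to targets, was read the same way. H3K27me3 was listed in at least 2 of 3 libraries at 40 in Oct4+, 57 in DP and 31 in Pdgfra+ (48.8, 69.5 and 37.8%), against 17.7, 30.9 and 15.4% of all genes, with median covered shares of 4.77, 8.98 and 3.38% against 0, 0 and 0%. The ligands carried it most, 12 of 13 in each population, and the cytoplasmic transducers least in Oct4+, 2 of 11, with 6 of 11 in DP and 2 of 11 in Pdgfra+. H3K27ac was listed at 61, 38 and 30 of the 82 (74.4, 46.3 and 36.6%), near the 69.0, 49.1 and 34.0% of all genes, with all 11 transducers in Oct4+, 10 in DP and 8 in Pdgfra+. Among the 17 receptors H3K27ac was listed at 14, 6 and 4, and among the 13 secreted or membrane inhibitors at 7, 3 and 1. None passed an adjusted p under 0.05 in any mark. An unadjusted p under 0.05 was reached by 5 of 48 tested for H3K4me1, 5 of 53 for H3K27ac, 4 of 58 for H3K27me3 and 5 of 42 for H3K9me3. Over all genes tested, the shares were 9.4, 12.5, 10.4 and 17.9% in that order.

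Single pathway genes met the rule of 3 against 0 libraries. For H3K27ac 5 of the 82 (6.10%) were called between Oct4+ and Pdgfra+, against 7.63% of all genes, a share near the background. Tnfrsf19, a receptor gene and Wnt target, had a mean covered share of 13.8% in Oct4+ and 0% in DP and Pdgfra+, and its H3K27me3 ran from 0% in Oct4+ to 21.0% in DP and 3.43% in Pdgfra+. Myc had H3K27ac at 7.74% in Oct4+ and Lgr6, a relative of Lgr5, at 5.60%, each with 0% in the other populations. Cdx2, the trophectoderm factor related to Cdx1, went the other way, with H3K27ac at 0, 4.45 and 8.04%.

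For H3K27me3, Notum, a secreted enzyme that inactivates Wnt ligands, was at 0% in Oct4+, 31.0% in DP and 15.4% in Pdgfra+ (3 of 3 libraries in both). Its window also held H3K27ac in 3 of 3 libraries of each population, at 25.7, 15.3 and 9.37%. The receptor gene Fzd7 was at 9.54, 13.7 and 0% and the transducer gene Dvl1 at 2.81, 12.02 and 0%. For H3K4me1, Wnt3a was at 16.0, 3.50 and 0%, Dvl3 at 6.53, 3.08 and 0%, Fzd8 at 8.14, 0 and 1.65% and Wnt10b at 0, 9.88 and 4.33%. For H3K9me3, Wnt3 was at 3.89, 7.58 and 0%, Sfrp2 at 4.78, 6.995 and 0%, Cer1 at 4.38, 0 and 2.32% and Ror1 at 2.73, 0.813 and 0%. The genes named had the largest differences among those called and are not a sample of the list. Shares called follow in the order Oct4+ against Pdgfra+, Oct4+ against DP, and DP against Pdgfra+. For H3K27me3 they were 3.66, 6.10 and 4.88% of the 82, against 1.79, 3.59 and 2.41% of all genes. For H3K4me1 they were 6.10, 8.54 and 0%, against 4.52, 3.96 and 1.41%. For H3K9me3 they were 7.32, 3.66 and 3.66%, against 6.29, 4.29 and 1.02%.

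For each member, the pathway gene whose covered share was most alike over the 36 libraries of all marks was found by Pearson's r, as a description. Both genes of a pair were read in the same libraries, so differences in list length and between marks also enter r. Each r given was the highest found for that member, and a typical r was not computed. Sp5 was most like Sfrp1 (r = 0.935), an inhibitor gene, which was also the gene most like Lgr5 (r = 0.836), and Cdx1 was most like Wnt5b (r = 0.930). The members with little or no H3K27me3 paired with Lrp5 (Ctnnb1, r = 0.864), Znrf3 (Tcf7, r = 0.895), Fzd5 (Tcf7l1, r = 0.875) and Tle4 (Axin2, r = 0.852), and Lef1 paired with Fzd3 (r = 0.832).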

How the data were processed

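The 36 CUT&Tag libraries were those of 4 marks, 3 populations and 3 replicates, and 3 IgG samples were not used here. Per the study's methods, the authors computed fragment coverage with BEDtools and called peaks per library against IgG with SEACR in its stringent setting. The submitters' processing notes also name bcl2fastq 2.19.1, Bowtie2, SAMtools 1.12, deepTools, bedtools 2.26.0 and the build mm10, which is GRCm38. The deposited files are peak lists of signal (coverage summed over the bases of a peak, its maximum and the interval of the maximum). The SEACR normalization setting is not given in the sources used here. Depth is unknown because the lists hold no read totals, and signal was therefore ranked only within a library.

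Genes came from GENCODE vM21 and sequences from RefSeq GRCm38.p6. A promoter ran from 1000 bases upstream to 100 downstream of any annotated start. The percent of each window under peaks was computed in Python 3.11.15 with NumPy 2.4.6 and pandas 2.3.3 and plotted with Matplotlib 3.10.9. Regions were merged over the libraries of a mark. Tests were two-sided exact permutation tests, with a smallest p of 0.00357, and pairs of populations, where 3 against 3 libraries cannot go below 0.10, were compared by presence alone. The test code was checked on data with known answers. No replicate lists were identical.

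The members, the 82 pathway genes and the markers were chosen with earlier results of these data known. All 8 members were named. Per mark, up to 4 pathway genes listed in 3 of 3 against 0 of 3 libraries with the largest difference in mean covered share were named, as was the gene most like each member, and neighbours with a peak at their promoter.

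Alternatives were equal numbers of peaks per list, the upper 50% of peaks, the gene body alone or with 50 kb, peak midpoints, percentiles, genes with a peak in at least 1 library, each library left out and a replicate block.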

Additional observations from a re-analysis of the deposited data

How the results depend on the processing

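The adjusted test called 0 members in each mark under every alternative. Same-numbered libraries did not deviate together (r from -0.553 to 0.608 over 9 pairs for H3K4me1, with 4 over 0.1, and 1, 3 and 1 over 0.1 for H3K27ac, H3K27me3 and H3K9me3), so the numbers were not taken to pair them. The replicate block could not have called a gene unless most genes had its smallest p of 0.0278, so its 0 calls in each mark say nothing of stability. It gave an unadjusted p under 0.05 at 301, 156, 136 and 238 genes in the order H3K4me1, H3K27ac, H3K27me3 and H3K9me3 and Cdx1 (H3K4me1) as the only member among them. By the rule of 3 against 0 libraries, 2, 1, 1 and 0 members were called in that order. With equal numbers of peaks these were 0, 0, 1 and 1 (Sp5 in place of Cdx1 for H3K27me3, Tcf7l1 for H3K9me3), with the upper 50% of peaks 1, 0, 1 and 1, and with 50 kb either side 1, 2, 1 and 0. Leaving out 1 library gave 2 to 4 for H3K4me1 (4 without Oct4+ replicate 1, which added Lef1 and Axin2), 1 to 2 for H3K27ac (2 without Oct4+ replicate 3, which added Lef1), 1 to 2 for H3K27me3 (2 without DP replicate 1, which added Tcf7, or without Pdgfra+ replicate 3, which added Sp5) and 0 to 1 for H3K9me3 (Tcf7l1 without Oct4+ replicate 1, Lgr5 without Pdgfra+ replicate 1). Chosen after seeing the data, leaving out the short H3K4me1 lists of Pdgfra+ replicates 1 and 2 kept Lgr5 and Cdx1 (15.0% of all genes called), and leaving out the long H3K27ac lists of Oct4+ replicates 1 and 2 kept Axin2 (14.4%). Of 52 differences between population means at the members, 52 kept their sign with peak midpoints, 50 with 50 kb either side, 40 with the upper 50% of peaks, 38 with the gene body alone and 17 with equal numbers of peaks, where 28 fell to 0 and 7 changed sign. The cause of these shifts was not tested. Without read totals, the absence of a listed peak cannot be set apart from low depth.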
